A study of Danio rerio with 18 samples.

Results

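The genes described here are the transcription factors that set and hold retinal pigment epithelium (RPE) identity in the zebrafish eye: mitfa, mitfb, tfec, otx1, otx2, sox9a and sox9b. They were chosen by name from the gene tables of sorted RPE-enriched cells, and 6 of the 7 names had a row among 34326 genes. The name otx1 was not found; the tables hold otx1a and otx1b, which are given below with the rest of their family. All 6 genes passed the filter on low counts, as did 20093 genes in all.

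MITF is a basic helix-loop-helix leucine zipper factor of the MiT/TFE family, which also holds TFEC, TFEB and TFE3. In mouse it is needed for RPE fate and drives melanin genes. Zebrafish carry a pair of copies: mitfa is required for neural crest melanophores of the skin, and mitfb is expressed in the RPE. OTX2 and its relatives are paired-type homeodomain factors, needed for RPE specification in mouse together with MITF, and also used by photoreceptors and bipolar cells. SOX9 is an HMG-box factor of the SoxE group that acts with MITF and OTX2 on visual cycle genes in mouse RPE, and is also expressed in Müller glia and cartilage.

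The study followed regeneration of the RPE after its ablation in larvae, with RNA-seq of cells sorted for eGFP from enucleated eyes, up to 1000 cells per library. Ablated larvae were given 10 mM metronidazole, a drug used to kill cells that carry a bacterial nitroreductase, for 24 hours, from 5 to 6 days post fertilization, and their cells were collected at 2, 4 or 7 days post injury (dpi). Unablated larvae of the same 3 times had no metronidazole. Each of the 6 groups had 3 libraries. All larvae, ablated and unablated, had been kept in 1.5X phenylthiourea, an inhibitor of melanin synthesis, from 0.25 to 5 days post fertilization. The labels name neither the transgene behind the eGFP nor the strain or exact age at collection. There was no group with the drug but without ablation, so effects of the drug and of the ablation cannot be told apart. Nothing in the labels says that the 3 libraries of a group came from separate clutches, so p-values measure the spread between these libraries. At 2 dpi the titles of replicates 2 and 3, in both treatments, share a string of numbers that replicate 1 lacks. Replicate 2 at 4 dpi and replicate 2 at 7 dpi share another such string. What these strings stand for is not given. The title of unablated 4 dpi replicate 1 names the other treatment, and its treatment label was used, with results also computed without it.

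Total counts per library ranged from 21.9 M to 60.4 M. The correlation of log2 levels between libraries of one group ran from 0.78 to 0.943. Of 13 RPE markers 12 had counts in all 18 libraries. At their highest, rpe65a, dct, pmela, tyrp1b and rlbp1b reached 29670, 15770, 11810, 49850 and 44180 counts per 1 M, or CPM. Others on the list were lower: kcnj13 reached 71.3 CPM and slc16a3 18.5 CPM, and ttr had no count in 13 libraries. CPM values are scaled for library composition, and fold changes are on the log2 scale of ablated over unablated, from edgeR's quasi-likelihood test with Benjamini-Hochberg adjustment over the 20093 genes. Since same-numbered libraries vary together, the fit with the replicate number as a block is given where it changes the call of a gene or count named here. Below, a gene that falls or rises is one lower or higher in ablated than in unablated larvae, not one that changes with time. In bulk libraries, fewer cells of a type and less RNA per cell cannot be told apart.

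To compare genes with each other, the authors' TPM values, transcript abundances that account for gene length, were averaged over the 18 libraries. The order was otx2 at 279 TPM, mitfa at 154 TPM, sox9b at 43.9 TPM, tfec at 15.5 TPM, sox9a at 6.98 TPM and mitfb at 3.45 TPM. Every pair of neighbours in this order overlapped in range: otx2 ran from 61.6 to 603 TPM, mitfa from 63.8 to 222 TPM, sox9b from 13.6 to 82.2 TPM, tfec from 1.92 to 39.6 TPM, sox9a from 1.91 to 19.8 TPM and mitfb from 0.356 to 11.3 TPM. Of the MITF copies, mitfa was thus the far more abundant in these sorted eye cells.

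**Figure D1:**
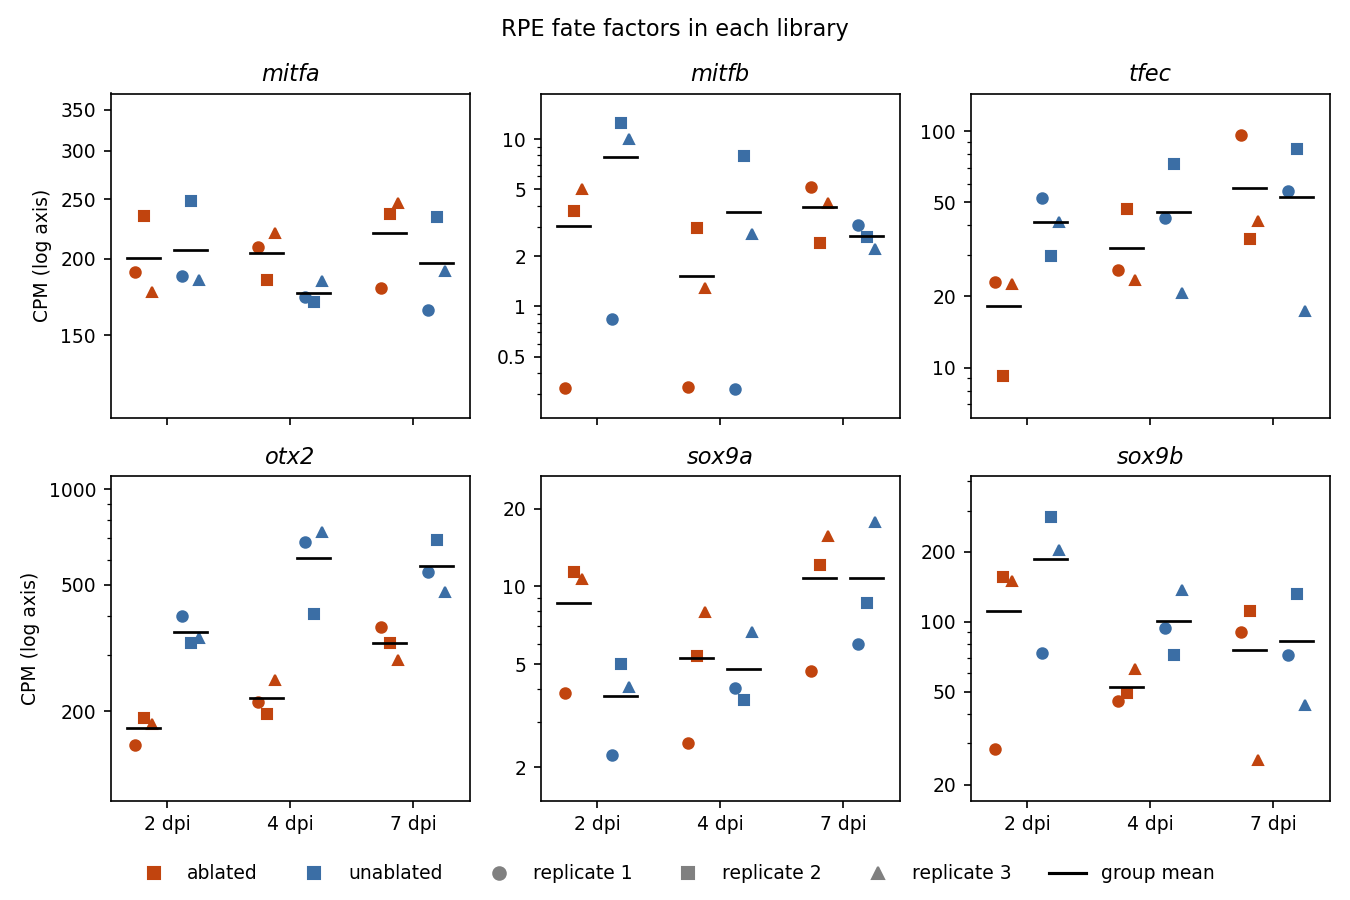
Level of each fate factor in CPM (log axis) by time after injury, with ablated libraries in orange left of unablated libraries in blue, symbols for replicate numbers and bars for the arithmetic group mean (n = 3). The otx2 points of ablated larvae lie below all unablated points at each time, while mitfa stays between 164.7 and 248.2 CPM in every library.

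mitfa (chromosome 6, 43392851 to 43435741, plus strand, GRCz10) showed no difference with ablation that passed the test. At 2 dpi it had 190, 235 and 176 CPM in ablated larvae against 187, 248 and 185 CPM in unablated larvae. At 4 dpi it had 209, 185 and 220 CPM in ablated larvae against 173, 170 and 184 CPM in unablated larvae, and at 7 dpi 179, 236 and 246 CPM against 165, 234 and 191 CPM. The groups overlapped at 2 and 7 dpi, and at 4 dpi the ablated libraries all lay above the unablated ones, as 13.7% of genes tested did. The log2 fold changes were -0.04, 0.22 and 0.17 at 2, 4 and 7 dpi, and the mean over the 3 times was 0.11 (SE 0.17, 95% interval -0.25 to 0.48, adjusted p = 0.77 by edgeR).

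The level of mitfa was steady across all 18 libraries, with a highest value 1.51-fold above the lowest and an SD of 0.198 on the log2 scale. Of 1216 genes with a mean CPM within 2-fold of its own, 2 had a smaller SD (0.1645%). This depends on the scale: with size factors of the relative log expression method 3 of 1218 genes were steadier, with unscaled CPM 12 of 1214, and in the deposited TPM values, where mitfa ran 3.47-fold from lowest to highest, 116 of 1144. The comparison was added after the values had been seen and is a description.

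mitfb (chromosome 23, 698282 to 751422, minus strand) was low and uneven. At 2 dpi it had 0.324, 3.73 and 5.06 CPM in ablated larvae against 0.840, 12.5 and 10.0 CPM in unablated larvae. At 4 dpi the values were 0.329, 2.95 and 1.28 CPM in ablated larvae against 0.323, 7.92 and 2.70 CPM in unablated larvae, and at 7 dpi 5.19, 2.4 and 4.14 CPM against 3.08, 2.6 and 2.2 CPM. Replicate 1 was the lowest of its group at 2 and 4 dpi, with or without ablation, and the groups overlapped at every time. The log2 fold change was -1.36, -1.27 and 0.58 in turn, with a mean over times of -0.68 (SE 0.64, 95% interval -2.03 to 0.66, adjusted p = 0.58 by edgeR).

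tfec (chromosome 4, 5988658 to 6041072, plus strand), a MiT factor expressed in zebrafish RPE and pigment precursors, was lower in the ablated libraries at 2 dpi without passing the test. It had 22.9, 9.18 and 22.5 CPM in ablated larvae against 52.3, 29.6 and 41.4 CPM in unablated larvae at 2 dpi, with no overlap. Such a split, with ablated below, was found for 11.6% of genes tested at 2 dpi. At 4 dpi it had 25.9, 46.6 and 23.5 CPM in ablated larvae against 42.8, 72.6 and 20.7 CPM in unablated larvae, and at 7 dpi 96.2, 34.9 and 41.6 CPM against 55.8, 84.3 and 17.4 CPM. From 4 dpi on the groups overlapped. The log2 fold changes were -1.17 (SE 0.59, adjusted p = 0.34), -0.50 and 0.13, and the mean over times was -0.51 (SE 0.34, adjusted p = 0.40 by edgeR). At 7 dpi the sign turned without ablated replicate 1 (-0.45) or without unablated replicate 3 (-0.26), and also when replicate 1 of all 6 groups was dropped (-0.40).

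otx2 (chromosome 17, 44130894 to 44135955, minus strand) was the 1 member called without the replicate block: it was about 2-fold lower in ablated larvae. At 2 dpi it had 157, 190 and 183 CPM in ablated larvae against 399, 328 and 340 CPM in unablated larvae. At 4 dpi it had 213, 196 and 250 CPM in ablated larvae against 679, 406 and 733 CPM in unablated larvae. At 7 dpi it had 367, 328 and 290 CPM in ablated larvae against 547, 690 and 476 CPM in unablated larvae. Every ablated library lay below every unablated library of its time, at all 3 times. That held for 106 genes, 0.528% of those tested. For single times the share was 11.6% at 2 dpi, 11.1% at 4 dpi and 5.04% at 7 dpi.

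The log2 fold change of otx2, meaned over the 3 times, was -1.09 (SE 0.19, 95% interval -1.49 to -0.69, adjusted p = 0.0033 by edgeR), rank 151 of 20093 genes by p. At single times it was -1.01 (SE 0.33, adjusted p = 0.12), -1.46 (SE 0.33, adjusted p = 0.084) and -0.80 (SE 0.33, adjusted p = 0.71). With the replicate block it passed at 2 dpi (-1.01, adjusted p = 0.0072) and at 4 dpi (-1.42, adjusted p = 0.0035) and did not at 7 dpi (-0.79, adjusted p = 0.15). Without the library whose title and label differ, the mean over times was -1.04 (adjusted p = 0.0096). The ablation effect itself was not shown to differ between times: the 4 minus 2 dpi difference was -0.45 (95% interval -1.43 to 0.53) and the 7 minus 2 dpi difference 0.21 (-0.76 to 1.19).

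otx2 shares 113 bases with CR936482.1, a gene on the opposite strand that reached 1291 CPM. Whether counting used strand is not given in the sources used here, so reads in the shared stretch cannot be told apart. Without the block, CR936482.1 had a mean log2 fold change of -0.89 (SE 0.43, adjusted p = 0.22 by edgeR) and did not pass at any time. It was not fitted with the block. In each same-numbered pair its ablated library was the lower, as for otx2. At 2 dpi it had 125.5, 424.5 and 769.8 CPM in ablated larvae against 409.4, 711.4 and 1291 CPM in unablated larvae. The part of its reads in the otx2 counts was not tested.

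sox9a (chromosome 12, 1927596 to 1931236, minus strand) and sox9b (chromosome 3, 62341796 to 62348451, minus strand) are the zebrafish copies of SOX9, and their fold changes had opposite signs at 2 dpi, neither past the test. sox9a had 3.86, 11.4 and 10.6 CPM in ablated larvae against 2.22, 4.99 and 4.07 CPM in unablated larvae at 2 dpi. It had 2.48, 5.39 and 7.95 CPM in ablated larvae against 4.03, 3.64 and 6.66 CPM in unablated larvae at 4 dpi, and 4.69, 12.1 and 15.7 CPM against 6.00, 8.59 and 17.8 CPM at 7 dpi. The groups overlapped at every time, and the mean log2 fold change was 0.45 (SE 0.36, 95% interval -0.31 to 1.2, adjusted p = 0.51 by edgeR), from 1.2 at 2 dpi, 0.14 at 4 dpi and 0.00 at 7 dpi.

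sox9b, more than 6-fold above sox9a in mean TPM, had 28.3, 156 and 150 CPM in ablated larvae against 73.2, 281 and 204 CPM in unablated larvae at 2 dpi. At 4 dpi it had 45.6, 49.3 and 62.5 CPM in ablated larvae against 93.9, 72.1 and 136 CPM in unablated larvae, with no overlap, as for 11.1% of genes tested with ablated below. At 7 dpi it had 90.1, 111 and 25.6 CPM in ablated larvae against 72.1, 131 and 44.0 CPM in unablated larvae. In 8 of the 9 same-numbered pairs the ablated library was the lower, a count for which no share over all genes was computed. The log2 fold changes were -0.74, -0.94 and -0.12, with a mean of -0.60 (SE 0.37, adjusted p = 0.36 by edgeR). With the replicate block sox9b passed at 2 dpi (-0.89, adjusted p = 0.038), at 4 dpi (-0.91, adjusted p = 0.049) and over the 3 times (-0.67, adjusted p = 0.0072), and not at 7 dpi (-0.23, adjusted p = 0.71). The 7 dpi sign turned without ablated replicate 3 (0.29) or unablated replicate 2 (0.35). FO834815.1, which lies across sox9b on the other strand, did not exceed 0.426 CPM.

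Among the 6 genes, none passed at 2 dpi, where 2.25% of all genes did, none at 4 dpi (0.0946%) and none at 7 dpi (0%). At 7 dpi no gene passed by edgeR, although 1328 had an unadjusted p under 0.05, 1 gene passed with the block (0.00498%) and DESeq2 called 126. Over the 3 times 1 of 6 passed, otx2, against 8.03% of all genes and 3.69% called lower in ablated larvae. With the block, 2 of 6 passed at 2 dpi (14.4% of all genes), 2 of 6 at 4 dpi (8.62%) and 2 of 6 over the times (21.5%), in each case otx2 and sox9b. Counts this small over 6 genes do not set the group apart from those shares. The median log2 fold change of the 6 was -0.88, -0.72 and 0.07 at 2, 4 and 7 dpi, beside -0.03, -0.07 and 0.00 over all genes. At 7 dpi their mean was -0.01, opposite in sign to their median.

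**Figure D2:**
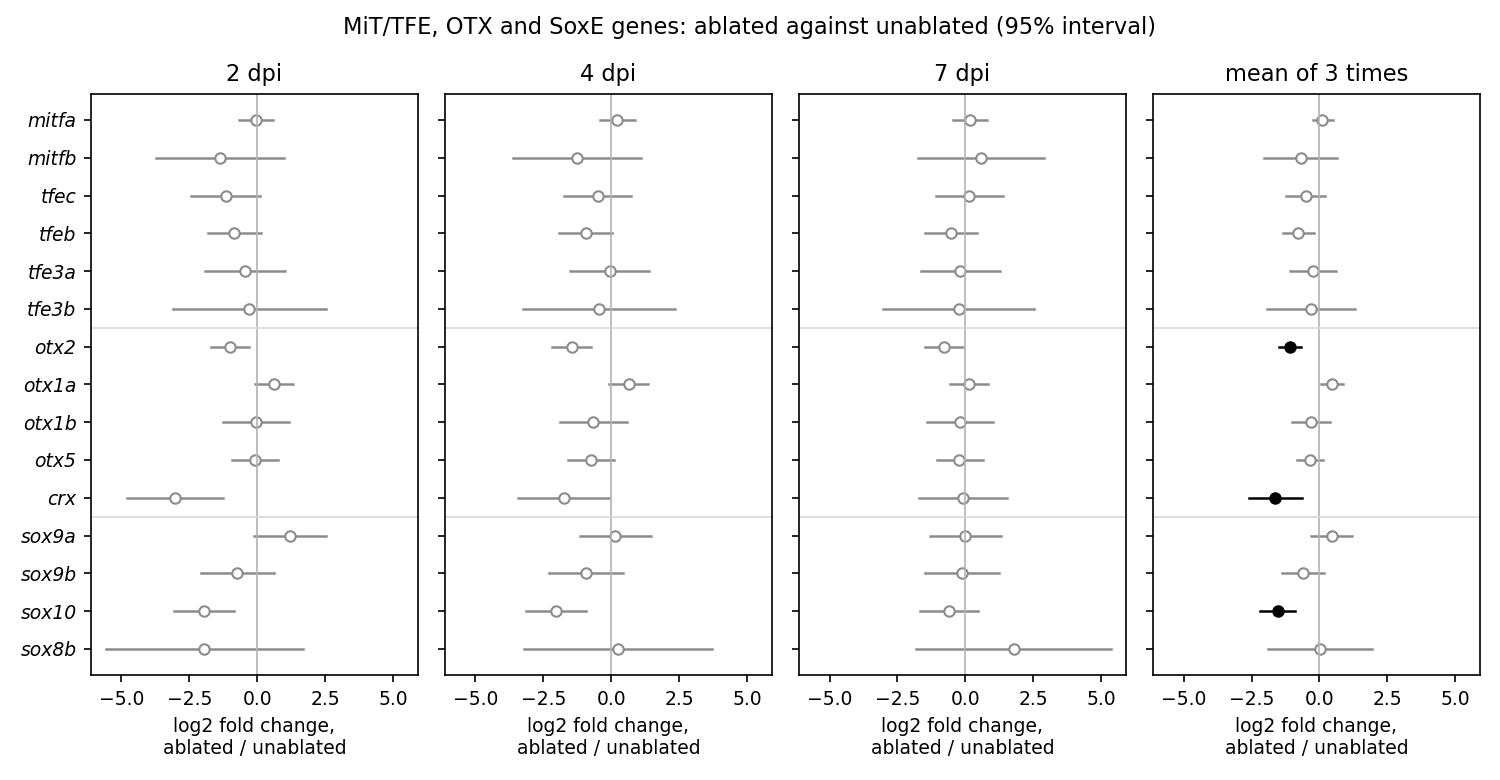
Log2 fold change of ablated over unablated larvae with its 95% interval for the tested MiT/TFE, OTX and SoxE genes, at each time and as the mean of the 3 times (n = 3 libraries per group, edgeR without the block). Filled black points passed an adjusted p of 0.05: otx2 (-1.09), crx (-1.62) and sox10 (-1.54), each in the mean over times.

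Between 2 and 7 dpi no member passed the test. From 2 to 7 dpi, 6.75% of all genes passed in ablated larvae and 3.86% in unablated larvae, against none of the 6 in either. In ablated larvae tfec was 1.66 higher at 7 than at 2 dpi (SE 0.60, adjusted p = 0.10 by edgeR), and otx2 0.90 higher (SE 0.33, adjusted p = 0.11). In unablated larvae sox9a was 1.52 higher (SE 0.63, adjusted p = 0.17), otx2 0.68 higher (adjusted p = 0.25) and sox9b differed by -1.18 (adjusted p = 0.31). No gene of the table passed a test that the ablation effect differed from 2 to 4 dpi (0%) or from 2 to 7 dpi (0%) by edgeR, where 919 and 2060 genes had an unadjusted p under 0.05 and DESeq2 called 25 and 290.

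Of the rest of the MiT/TFE family, tfeb, a driver of lysosome genes, was the gene nearest to a call. It had 26.1 ± 6.87 CPM in ablated larvae and 47.1 ± 7.62 CPM in unablated larvae at 2 dpi (SD, n = 3 each). The ablated libraries lay below without overlap, as for 11.6% of genes tested, and its mean log2 fold change was -0.78 (SE 0.26, adjusted p = 0.079 by edgeR). With the block tfeb passed at 2 dpi (-0.87, adjusted p = 0.022), at 4 dpi (-0.99, adjusted p = 0.019) and over the times (-0.81, adjusted p = 0.0012). tfe3a varied with the replicate number: at 4 dpi it had 6.69, 35.1 and 18 CPM in ablated larvae against 6.52, 35.5 and 20.4 CPM in unablated larvae. tfe3b averaged 1.11 TPM. Their mean log2 fold changes were -0.23 (adjusted p = 0.80) and -0.33 (adjusted p = 0.86).

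Of the other OTX genes, crx, which drives photoreceptor genes, was 1.62 lower in ablated larvae on the log2 scale, as the mean of the 3 times (SE 0.46, adjusted p = 0.037 by edgeR). It had 5.38, 1.91 and 0.882 CPM in ablated larvae against 30.3, 24.8 and 12.0 CPM in unablated larvae at 2 dpi, and the groups overlapped again at 7 dpi (-0.09). With the block crx also passed at 2 dpi (adjusted p = 0.010). otx1a was 0.46 higher (SE 0.19, adjusted p = 0.16), which the block takes past the threshold (0.46, adjusted p = 0.030). At 4 dpi its ablated libraries, at 27.4, 32.6 and 35.2 CPM, lay above the unablated ones at 16.0, 20.8 and 24.4 CPM, as 13.7% of genes tested did. otx5, a photoreceptor and pineal gene in zebrafish and the second most abundant OTX gene at 193 TPM, had a mean of -0.35 (adjusted p = 0.41), and with the block -0.37 (adjusted p = 0.045) and at 4 dpi -0.75 (adjusted p = 0.047). otx1b had a mean of -0.30 (adjusted p = 0.65).

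Of the other SoxE genes, sox10, a neural crest and pigment cell factor, was 1.54 lower in ablated larvae on the log2 scale, as the mean of the 3 times (SE 0.30, adjusted p = 0.0057 by edgeR). It had 4.84, 7.23 and 16.5 CPM in ablated larvae against 40.2, 29.4 and 41.3 CPM in unablated larvae at 2 dpi, and 20.4, 13.9 and 15.7 CPM against 113, 37.1 and 56.8 CPM at 4 dpi. With the block sox10 also passed at 2 dpi (-2.13, adjusted p = 0.0039) and 4 dpi (-1.91, adjusted p = 0.011). sox8b stayed below 3.06 CPM with no call, and sox8a, with at most 26 counts in a library, was not tested.

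Set against mitfa of the same library, otx2 gave the 1 ratio past the test without pairing. Its log2 ratio to mitfa averaged 0.17 in ablated and 1.36 in unablated larvae, a difference of -1.19 (-0.97, -1.64 and -0.95 at 2, 4 and 7 dpi). An exact permutation test of the labels within each time, over 8000 regroupings, gave a two-sided p of 0.00025, the smallest it can give, and 0.0012 adjusted over the 5 ratios. By TPM, otx2 was above mitfa in 4 of 9 ablated libraries and in 9 of 9 unablated libraries. The ratio of sox9b to mitfa differed by -0.79 (exact permutation p = 0.07, adjusted 0.18), that of tfec by -0.58 (adjusted 0.32), that of mitfb by -0.67 (adjusted 0.44) and that of sox9a by 0.27 (adjusted 0.44). Exact sign flips within the 9 same-numbered pairs, which take the pairing into account, can give no p below 0.0039. By them the otx2 ratio, lower in ablated libraries in 9 of 9 pairs, stayed past the threshold (adjusted 0.020 over the 5 ratios). That of sox9b, lower in 8 of 9 pairs, passed it (exact sign-flip p = 0.0078, adjusted 0.020). These ratios, the shares below and the sign flips were chosen after the values had been seen. As mitfa hardly varied and otx2 is the largest part of the OTX sum, the otx2 ratio and share largely restate its separation given above. Their p-values are no independent result.

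**Figure D3:**
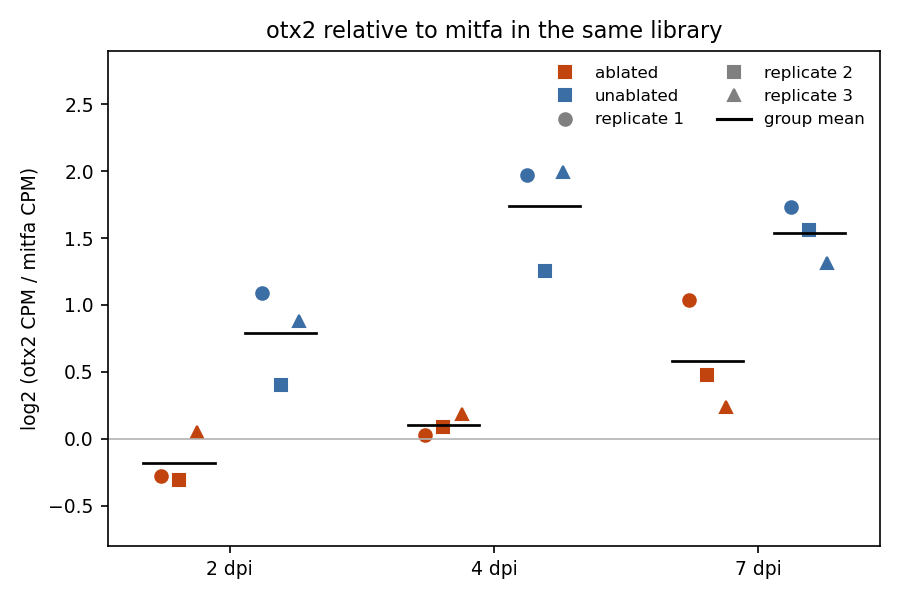
Log2 of otx2 CPM over mitfa CPM within each library, by time after injury, with ablated libraries in orange left of unablated libraries in blue and bars for the group mean (n = 3). The group means are -0.18, 0.10 and 0.58 in ablated larvae and 0.79, 1.74 and 1.54 in unablated larvae at 2, 4 and 7 dpi.

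The makeup of the OTX family shifted with it. otx2 held 43.5% of the summed TPM of otx1a, otx1b, otx2, otx5 and crx in ablated larvae and 56.5% in unablated larvae, a difference of -13.0 percentage points (two-sided exact permutation p = 0.00025, adjusted 0.00075 over 3 shares). The ranges did not meet at any time: 33.2% to 45.6% against 50.8% to 54.8% at 2 dpi, 36.9% to 50.9% against 54.1% to 66.5% at 4 dpi, and 42.0% to 49.9% against 53.9% to 60.0% at 7 dpi, ablated against unablated. The share of sox9a in the SOX9 pair was 19.3% in ablated and 12.0% in unablated larvae (exact permutation p = 0.24, adjusted 0.24). Its ranges were apart at 2 dpi, at 12.2% to 21.0% in ablated against 3.35% to 5.6% in unablated larvae, and at 4 dpi, at 9.61% to 19.9% against 7.73% to 8.97%, and overlapped at 7 dpi. Within pairs the sox9a share was higher in the ablated library in 8 of 9, which passed by sign flips (exact sign-flip p = 0.012, adjusted 0.018 over 3 shares), as did the otx2 share (adjusted 0.012). As sox9b is part of the pair's sum, the sox9a share is not independent of the sox9b values given above. mitfb held 1.85% of the MITF pair in ablated and 3.07% in unablated larvae (exact permutation p = 0.23).

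Genes that act with these factors or that they are known to control were taken from lists, described by counts and medians. Beside each count over the times stands the share of all 20093 genes, of which 8.03% passed, 4.34% higher and 3.69% lower, and with the block 21.5%, 11.1% higher and 10.4% lower. Of 21 tested partners in RPE fate, 3 fell over the 3 times (3.69% of all genes did) and none rose, with a median log2 fold change of -0.44 beside -0.04 over all genes. bhlhe40, a transcriptional repressor, fell by 1.58 (SE 0.27, adjusted p = 0.0031 by edgeR), and was called at 2 dpi too (-1.90, adjusted p = 0.047). It had 41.0, 63.2 and 95.6 CPM in ablated larvae against 108, 301 and 338 CPM in unablated larvae at 2 dpi. Its ablated libraries lay below the unablated ones at all 3 times, as held for 0.528% of genes tested. Its relative bhlhe41 fell by 1.22 (adjusted p = 0.024) and lhx2b, a LIM homeobox gene of the optic vesicle, fell by 1.00 (adjusted p = 0.040). With the block bhlhe41 also passed at 2 dpi (adjusted p = 0.0032), and bhlhe40, bhlhe41 and lhx2b at 4 dpi (adjusted p = 0.0056, 0.0068 and 0.044). With the block 8 of the 21 were called over the times, all lower (10.4% of all genes), with pax6b, tead1b and yap1, a Hippo pathway coactivator needed for zebrafish RPE, among the 8 (these 3 were picked after their values were seen).

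Factors of neural retina fate, which oppose RPE fate in the optic cup, had mostly negative values at 2 dpi. Of 17 tested, 16 had a negative value at 2 dpi, with a median of -3.04, and the median was -1.19 at 4 dpi and 0.35 at 7 dpi. vsx1, a bipolar cell factor, had 1.54 ± 0.888 CPM in ablated larvae against 20.8 ± 18.2 CPM in unablated larvae at 2 dpi (-3.75, adjusted p = 0.043 by edgeR, n = 3 each), a call lost with the block (adjusted p = 0.061). sox2, a stem and glial cell factor, was 1.81 lower in ablated larvae as the mean of the 3 times (SE 0.52, adjusted p = 0.041 by edgeR). By single times its log2 fold change was -3.62, -2.15 and 0.35 at 2, 4 and 7 dpi. It had 0.32, 1.15 and 0.97 CPM in ablated larvae against 7.11, 16.6 and 6.21 CPM in unablated larvae at 2 dpi, and its groups overlapped at 4 and 7 dpi. With the block sox2 also passed at 2 dpi (adjusted p = 0.0062). It was the 1 gene of the 17 called over the times (8.03% of all genes), and with the block 8 of 17 were, all lower (10.4% of all genes).

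Melanin genes known to be driven by MITF were called, without the block, at a share near that of all genes. Of 21 tested, 1 rose and 1 fell over the 3 times (4.34% and 3.69% of all genes), and the median was -0.31, with -0.62, -0.20 and -0.21 at 2, 4 and 7 dpi. rab32a, a small GTPase of melanosome formation, rose by 1.36 (SE 0.24, adjusted p = 0.0037 by edgeR). It had 381, 247 and 215 CPM in ablated larvae against 163, 87.9 and 89.8 CPM in unablated larvae at 2 dpi, and 279, 222 and 208 CPM against 68.2, 60.0 and 65.7 CPM at 4 dpi. kita, a receptor of melanophores, fell by 2.02 (SE 0.56, adjusted p = 0.035). With the block rab32a also passed at 2 and 4 dpi (adjusted p = 0.0029 and 0.0021) and kita at 2 dpi (adjusted p = 0.010). Over the times 1 of the 21 then rose (11.1% of all genes) and 6 fell (10.4%).

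Of 21 tested RPE genes known to be under MITF, OTX2 or SOX9, 4 fell over the 3 times (3.69% of all genes) and none rose, with a median of -0.53. cst3, a secreted protease inhibitor, fell by 1.44 (SE 0.33, adjusted p = 0.015 by edgeR), with 338, 784 and 586 CPM in ablated larvae against 1688, 2233 and 3485 CPM in unablated larvae at 2 dpi. abca4a, a retinoid transporter, fell by 1.27 (adjusted p = 0.018) and its copy abca4b by 3.43 (adjusted p = 0.032), at no more than 2.93 CPM in any group mean. vegfaa, the endothelial growth factor, fell by 0.95 (adjusted p = 0.031). The median at 2 dpi was -1.09, or -0.99 with a gene listed at 0 in a whole group put at its bound, against -0.35 and -0.24 at 4 and 7 dpi. With the block cst3 passed at 2 and 4 dpi (adjusted p = 0.00067 and 0.0042) and abca4a at 2 dpi (adjusted p = 0.0025). With it 9 of the 21 fell at 2 dpi (6.87% of all genes) and 1 rose (7.56%), and 2 fell at 4 dpi (3.93%) and none rose (4.69%). Over the times 10 fell (10.4%) and 1 rose (11.1%), with rpe65a, rdh5 and best1 among the 10, again picked after their values were seen.

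Lysosome genes under the TFEB group were called in both directions. Of 27 tested, 3 rose and 1 fell over the 3 times (4.34% and 3.69% of all genes), and 19 of the 27 had a negative value at 2 dpi. The list had a median of 0.13 and medians of -0.23, 0.44 and 0.22 at 2, 4 and 7 dpi. The cathepsins ctsh and ctsk rose by 0.98 (adjusted p = 0.0095 by edgeR) and 2.68 (adjusted p = 0.014), and atp6v1ab, a proton pump subunit, rose by 1.15 (adjusted p = 0.036). hexa, a hexosaminidase subunit, fell by 0.88 (adjusted p = 0.023). ctsh had 88.1 ± 6.22 CPM in ablated larvae and 29.1 ± 10.4 CPM in unablated larvae at 4 dpi, and 74.2 ± 16.1 CPM and 72.6 ± 4.89 CPM at 2 dpi (SD, n = 3 each). With the block 6 rose and 1 fell over the times (11.1% and 10.4% of all genes), with ctsh, ctsk and atp6v1ab also past the threshold at 4 dpi (adjusted p = 0.014, 0.047 and 0.0013) and hexa at 2 dpi (adjusted p = 0.037). Macrophage markers, cells also rich in lysosomes, are given below.

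**Figure D4:**
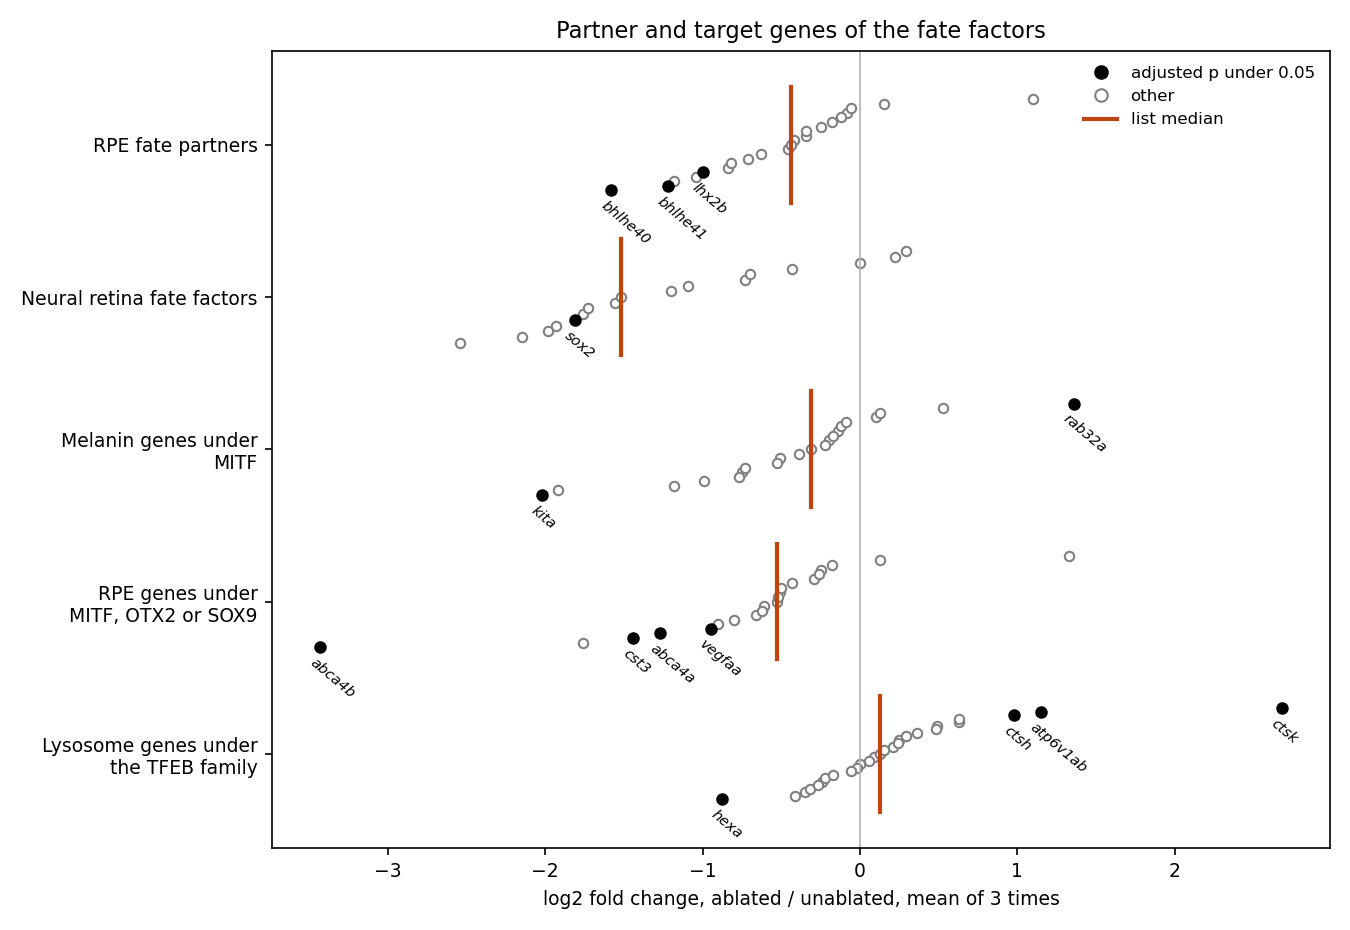
Log2 fold change of ablated over unablated larvae, as the mean of the 3 times, for each tested gene of the partner and target lists (points spread vertically by rank within a list). Filled black points passed an adjusted p of 0.05 without the block and are named, and orange bars mark the list medians of -0.44, -1.52, -0.31, -0.53 and 0.13 from top to bottom.

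Markers of other eye cells moved with ablation at 2 dpi, and these values stand beside the results for otx2, crx, sox9b, sox10 and the target lists. At 2 dpi the summed CPM of 14 Müller glia markers was 918 to 2438 in ablated and 4198 to 7005 in unablated larvae, that of 24 photoreceptor markers 75.2 to 111 against 153 to 1091, and that of 20 bipolar and neuron markers 48.2 to 66.7 against 114 to 129. The 23 cartilage and periocular markers summed to 52.3 to 93.6 CPM in ablated larvae and to 177 to 190 CPM in unablated larvae. The 13 RPE markers also differed at 2 dpi, at 63010 to 76630 CPM in ablated and 121500 to 140600 CPM in unablated larvae. None of these pairs of ranges overlapped at 2 dpi. Nor did the sums of 15 lens markers, at 5.04 to 12.1 CPM in ablated and 18.1 to 115 CPM in unablated larvae. The macrophage sums (4.71 to 27.9 against 27.8 to 111 CPM) and the neural crest pigment cell sums did overlap. Of single genes tested, 11.6% lay lower in ablated larvae without overlap at 2 dpi. No such share was computed for sums. In the Müller glia sum glula reached 14300 CPM, apoeb 7148 CPM and fabp7a 4251 CPM, so different genes could weigh most in different libraries. The glia marker gfap reached 2.1 CPM and had no count in 3 libraries. The median log2 fold change of the 13 tested glia markers was -1.47, 0.96 and 1.03 at 2, 4 and 7 dpi.

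At 4 and 7 dpi the sums overlapped for the RPE, Müller glia, photoreceptor, neuron and cartilage lists. The lens sums stayed apart at 4 dpi and overlapped at 7 dpi. For Müller glia the 7 dpi overlap came from ablated replicate 3 (12820 CPM). Ablated replicates 1 and 2 had 5796 and 4407 CPM, against 6331 to 8708 CPM in unablated larvae. At 4 dpi the Müller glia sum was 6173 to 7897 CPM in ablated and 6824 to 16140 CPM in unablated larvae, the photoreceptor sum 107 to 2742 against 222 to 972 CPM, the neuron sum 97.2 to 241 against 86.3 to 216 CPM, and the RPE sum 55430 to 92570 against 67940 to 101100 CPM. Such sums weigh the most abundant genes most, rho reaching 1634 CPM, and single genes can differ from them. Of 23 tested photoreceptor markers, 18 had a positive log2 fold change at 4 dpi and 5 a negative one, with crx (-1.76) among the 5. The ablated libraries of otx2 lay below the unablated ones at 4 and 7 dpi, and those of crx did at 4 dpi. This held for 11.1% of genes tested at 4 dpi and 5.04% at 7 dpi. Photoreceptor and bipolar cells also use otx2, and the part of these cells in its level was not tested. The same holds for Müller glia and cartilage beside sox9b, and for neural crest pigment cells beside mitfa, tfec and sox10. Markers of those pigment cells summed to 540 to 5183 CPM per library, and 8 of the 22 had counts in all 18 libraries. In that sum gch2 reached 4151 CPM and pnp4a 2048 CPM, while sox10 reached 113 CPM, kita 22.2 CPM and crestin 2.18 CPM. Of the 23 cartilage and periocular genes 4 had counts in all 18 libraries and 6 had none in most libraries: col9a1a reached 125 CPM and col11a1a 82.7 CPM, while matn1 had at most 1 count.

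**Figure D5:**
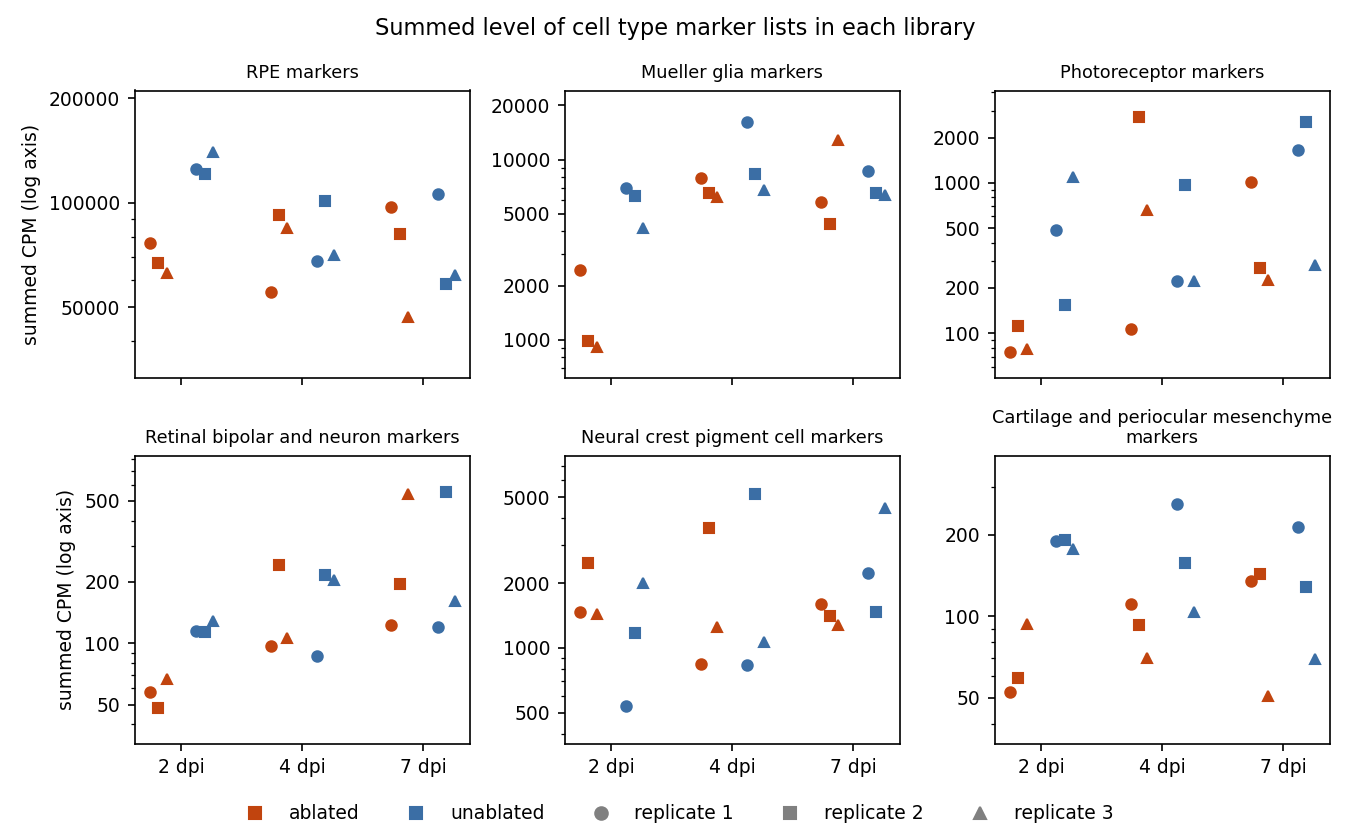
Summed CPM (log axis) of 6 cell type marker lists in each library by time after injury, with ablated libraries in orange left of unablated libraries in blue and symbols for replicate numbers. The RPE, glia, photoreceptor, neuron and cartilage sums lie apart at 2 dpi and overlap at 4 and 7 dpi, while the neural crest pigment cell sums overlap at every time.

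Single marker genes are read beside the 8.03% of all genes that passed over the times (21.5% with the block). Over the 3 times 1 of the 12 tested genes on the RPE marker list rose: slc16a3, a lactate transporter (3.18, adjusted p = 0.014 by edgeR). It was low in unablated larvae, at group means of 0.586, 0.491 and 1.64 CPM at 2, 4 and 7 dpi. By that level it did not mark these sorted cells, and its rise is not a rise of RPE markers. In ablated larvae it had 13.4, 6.74 and 3.91 CPM. The RPE list had a median of -0.42 and a mean of -0.21. With the block 4 of the 12 fell too (rpe65a, kcnj13, rdh5 and best1, named after their values were seen). Among neural crest pigment cell markers 2 of 20 fell (sox10 and kita, median -0.68), and the list summed to 1442 to 2467 CPM in ablated and 540 to 1991 CPM in unablated larvae at 2 dpi. glula, the glutamine synthetase of Müller glia, fell by 1.73 (adjusted p = 0.013), 1 of 13 in its list, whose median was 0.26, and with the block it passed at 2 and 4 dpi as well (adjusted p = 0.00018 and 0.0023). neurod1 and crx fell among 23 photoreceptor markers (median -1.11), and isl1, elavl3 and rbpms2b among 17 neuron markers (median -1.27). With the block neurod1, isl1 and elavl3 also passed at 2 dpi (adjusted p = 0.030, 0.0073 and 0.036). In the cartilage list col9a1a fell by 2.1 (adjusted p = 0.00087), 1 of 15, and was called at 2 dpi (adjusted p = 0.037) and 4 dpi (adjusted p = 0.047) as well. Over the times the block moved these counts. With it 7 photoreceptor, 5 neuron, 3 neural crest, 3 cartilage and 2 glia markers fell (10.4% of all genes). In the photoreceptor, neural crest and glia lists 1 marker each then rose (11.1% of all genes).

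In the macrophage list 1 gene rose. cd74b, an antigen presentation gene, was called higher over the times (adjusted p = 0.026 by edgeR), 1 of 20 macrophage markers, at 1.2 ± 1.70 CPM in ablated larvae and no counts in unablated larvae at 7 dpi (SD, n = 3 each). The list median was -1.17, 2.18 and 2.51 at 2, 4 and 7 dpi, or -1.10, 2.07 and 2.51 with genes listed at 0 in a whole group put at their bounds. Its sum ran from 37.3 to 263 CPM in ablated and 7.93 to 103 CPM in unablated larvae at 4 dpi. The part of such cells in the lysosome genes was not tested. Among 13 lens markers 3 fell (crybb1, cryba4 and mipb, median -2.48), of which the block took away crybb1 (adjusted p = 0.071) and mipb (adjusted p = 0.077) and added cryba1b (also named after its value was seen), and the list's sum at 4 dpi was 1.75 to 4.69 CPM in ablated and 5.26 to 240 CPM in unablated larvae.

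The genes whose levels were most like each factor's were found by Pearson correlation of log2 CPM over the 18 libraries, among about 9024 named genes with a mean of at least 5 CPM, as a description. The libraries share their groups and replicate numbers, so these values mix both. For otx2 they were atrx (r = 0.94), ctdspla, daam1a, ntm and caska (0.92). For tfec they were rx1 (0.88), six7, mpp2b, gpnmb and pde6g (0.81). For mitfa, whose level hardly varied, the highest were bcl2l10 (0.79), serpinb1l3, prox1b, TMEM179B and pgpep1 (0.70). For mitfb they were cmtm4 (0.91), adam15, ptk7a, ZNF609 and acvr2ab (0.89). For sox9a they were hsf1 (0.91), eef2b, slc6a8, rpl4 and rpl6 (0.85), of which eef2b, rpl4 and rpl6 encode parts of the translation machinery. For sox9b they were SERP1 (0.90), gstz1, tmem55bb, trappc2 and aamdc (0.89).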

How the data were processed

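The data were RNA-seq of sorted zebrafish cells in 18 libraries. Cells were sorted into a low-input SMART-Seq v4 kit and libraries made with Nextera XT, per the labels' protocols, so counts are of amplified cDNA without molecular identifiers. The files give total counts per gene and TPM per the file headers, which also say that reads were paired and trimmed; genome build GRCz10 is named in the submitters' processing notes. No source used here names the aligner, the counting rule or its use of strand. The deposited counts were used as they stand for the tests, and the deposited TPM, made by the authors, for levels between genes. All 18 count columns were matched to samples by title.

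Genes were filtered with filterByExpr (20093 of 34326 kept), scaled with TMM and tested in edgeR 4.0.16 (R 4.3.3) by the robust quasi-likelihood test over 6 group means, with 12 residual degrees of freedom, contrasts per time and averaged over times, and Benjamini-Hochberg adjustment at 0.05. The common biological coefficient of variation was 79.9%. Alternatives were another scaling, no filter, DESeq2 1.42.0, limma 3.58.1 on log2 of TPM plus 1 or 0.1, libraries of 1 time alone, leaving out each library and the replicate block. The replicate numbers come from the labels; deviations from the group means correlated between all 9 same-numbered pairs (r 0.187 to 0.593) and less between other numbers (-0.440 to 0.183), so the numbers were taken to pair the libraries. At 2 dpi ablated replicate 2 with unablated replicate 3, and the reverse, gave 0.183 and 0.157, beside 0.235 for the same-numbered pair of replicate 2. Deviations within a group cancel out, so a high value for same numbers forces lower ones for other numbers. That contrast is thus partly built in, and the pairing was read from the data it was used to test. The test was checked on simulated counts, with results not given here. Those counts were drawn without a shared replicate effect, so the check cannot speak to the pairing. Intervals cover 95%. Ratios and shares were tested by exact permutation within times, and by exact sign flips within pairs, added after seeing the data.

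Every member is named with all its values; from each list, up to 4 genes past the threshold are named, or else up to 2 by mean CPM, and all family members. Members and lists (277 symbols, 260 matched) were chosen with earlier results of these data known. Names were matched to the tables' own symbols. In RefSeq annotation of a later assembly otx1 is the name for otx1b; no coordinate of that assembly was used. A gene of the neural retina list is not reported here. No sequence is printed.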

Additional observations from a re-analysis of the deposited data

How the results depend on the processing

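The lower level of otx2 in ablated larvae, as the mean of the 3 times, kept its direction and its call under all 25 alternatives. The log2 fold changes were -1.14 to -1.01 and the adjusted p 2.5e-08 to 0.016. The causes of the differences below were not tested. With the replicate block 2 members were called at 2 dpi, at 4 dpi and over the times (otx2 and sox9b), and it changed no other member's call. DESeq2 called 1 member at 2 dpi and 1 at 4 dpi (otx2), and 1 from 2 to 7 dpi in ablated larvae (otx2, 0.87), where limma on TPM plus 1 or 0.1 also called 1 (otx2). In unablated larvae limma called 1 from 2 to 7 dpi (sox9a, 1.79 and 2.11).

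Counts over all genes moved more. With the replicate block 2901 genes were called at 2 dpi, 1732 at 4 dpi, 1 at 7 dpi, 4310 over the times, 16 for the change of the ablation effect from 2 to 4 dpi and 862 from 2 to 7 dpi. DESeq2 called 1745, 713, 126, 2937, 25 and 290 for these, and 3119 from 2 to 7 dpi in ablated and 2569 in unablated larvae. The libraries of 1 time alone gave 78 genes at 2 dpi and 220 at 4 dpi, and no filter gave 35 at 4 dpi. On TPM plus 1, limma called 247 at 4 dpi, 1 at 7 dpi and 1 for each change of the effect, and on TPM plus 0.1 it called 208 at 4 dpi and 5 at 7 dpi. TPM moved the median of all genes from 2 to 7 dpi to 0.24 or 0.43 in ablated and 0.33 or 0.66 in unablated larvae, with 0.1 added also to -0.17 at 7 dpi. The share called higher moved from 61.9% to 73.6% at 2 dpi (plus 1), from 68.4% to 81% or 83.7% at 4 dpi and, for the change from 2 to 7 dpi, from 41% to 60.6% (plus 0.1) in ablated and from 29.9% to 71.6% or 73.1% in unablated larvae.

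Leaving out replicate 1 at every time gave 10 genes at 4 dpi and 2668 from 2 to 7 dpi in unablated larvae. Leaving out single libraries gave 19 to 252 genes at 2 dpi (252, 89 and 233 without ablated, 138, 19 and 60 without unablated replicates 1, 2 and 3). At 4 dpi it gave 0 to 27, with 0 for each library but unablated replicate 2 (27). At 7 dpi it gave 0 to 3 (1 without ablated and 3 without unablated replicate 1), over the times 1018 to 1933 (1043 and 1018 without ablated 4 dpi replicates 1 and 3), and 0 to 2 for the effect from 2 to 7 dpi (unablated 7 dpi replicate 1). From 2 to 7 dpi in ablated larvae it gave 443 to 1368 (443 and 475 without 2 dpi replicates 2 and 3, then 627 and 636 without 7 dpi replicates 1 and 3), and in unablated larvae 0 to 1369 (1369, 2 and 0 without 2 dpi replicates 1, 2 and 3, then 2 and 1 without 7 dpi replicates 2 and 3).

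Some effects of single members turned sign, each for a comparison in which that member passed under no setting. They are given first as the range without single libraries. At 2 dpi mitfa ran from -0.13 to 0.14. At 4 dpi mitfb ran from -2.18 to 0.08, tfec from -0.87 to 0.06 and sox9a from -0.28 to 0.53. At 7 dpi tfec ran from -0.45 to 0.62, sox9a from -0.37 to 0.59 and sox9b from -0.5 to 0.35. From 2 to 7 dpi mitfb ran from -0.15 to 0.93 and sox9a from -0.03 to 0.7 in ablated larvae, and mitfa from -0.18 to 0.08 and tfec from -0.12 to 0.68 in unablated larvae. The effect change from 2 to 4 dpi ran from -0.8 to 1.46 for mitfb and from -0.65 to 0.19 for sox9b. Other settings turned sox9a at 7 dpi (-0.02 with the replicate block, -0.15 and -0.17 on TPM) and the sox9b effect change from 2 to 4 dpi (0.05 and 0.06 on TPM). TPM also turned sox9b from 2 to 7 dpi in ablated larvae (0.07 for both) and mitfa in unablated larvae (0.63 and 0.64). Without replicate 1 at every time tfec was -0.4 at 7 dpi, the otx2 effect change from 2 to 7 dpi -0.04 and mitfb from 2 to 7 dpi in ablated larvae -0.5. Each library held at least 3800 counts of mitfa and 3940 of otx2, and as few as 13 of mitfb.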
